A study of Mus musculus with 6 samples.

Results

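The 41 genes described here encode proteins that work inside or in the limiting membrane of the lysosome, together with Tfeb, a transcription factor that switches on many of them. They are defined by name and by the class of their product, with no threshold on a measured value, and were listed with earlier results of these data known. All 41 were found among the 23337 gene symbols of the deposited count table. They comprised 11 cathepsins, 2 other peptidases (Lgmn and Tpp1), 11 glycosidases, 3 sulfatases, 6 enzymes and carriers of lipid breakdown, 6 membrane proteins, progranulin (Grn) and Tfeb. RNA was sequenced from primary sinusoidal endothelial cells, which line the blood channels of the liver, isolated from mouse liver with magnetic beads, plated on collagen IV and deprived of serum. Stretch cells (replicates 1, 2 and 4) received cyclic stretch of 4% at 1 Hz from a Flexcell device that deforms the flexible growth surface, and control cells (replicates 2, 3 and 4) were left unstretched. Mouse strain, sex and age and the stretch duration were not given in the sources used here. Nothing says that the libraries came from separate animals or cultures, so the p-values measure only the spread between these 6 libraries.

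Lysosomes are acidic compartments in which proteins, glycans and lipids are broken down. Cathepsins cut proteins, glycosidases and sulfatases take apart sugar chains such as heparan sulphate, and a further set of enzymes and carriers handles sphingolipids and cholesterol. Proteins of the limiting membrane protect it from digestion and let ions and breakdown products out. Liver sinusoidal endothelial cells are scavengers that take up large amounts of waste macromolecules from blood by endocytosis and pass them to lysosomes. TFEB is known to bind an E-box within the CLEAR element of many lysosomal gene promoters.

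The libraries held between 48948948 and 68489956 gene counts, and the 41 genes took 1.75%, 1.56% and 1.63% of them in stretch libraries and 1.84%, 1.805% and 1.86% in control libraries. All 41 passed the filter on low counts, as did 14222 genes in all. The cells also differed in markers of cell type. Of 14 markers of sinusoidal endothelium, 10 were called lower and 0 higher in stretch cells (edgeR adjusted p under 0.05), and their summed level was between 11190 and 12721 CPM (counts scaled to library size with TMM factors) in stretch libraries, against 13296 to 14704 in control libraries. Hepatocyte markers summed to 625, 122 and 124 CPM in stretch libraries and 70.8, 42.5 and 89.6 CPM in control libraries, with 10 of 12 called higher. Cholangiocyte markers summed to between 146 and 174 CPM in stretch libraries and between 83.3 and 109 CPM in control libraries, with 4 of 6 called higher. In bulk RNA, fewer cells of a type and less RNA per cell cannot be told apart. The part of these markers in the results below was not tested.

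Lysosomal genes were more often lower than higher in stretch cells, and most differences were small. By edgeR's quasi-likelihood test, called at an adjusted p under 0.05 over all genes, 16 of the 41 fell, 4 rose and 21 did not pass. Across all genes tested 44% were called, 22.6% lower and 21.4% higher, so the share of lysosomal genes that fell, 39%, stood above the background and the share that rose, 9.76%, below it. The median log2 fold change of the 41 genes was -0.12, against -0.01 over all genes tested. Estimates were negative for 33 of the 41, beside 7358 of the 14222 genes tested. The CPM ranges of stretch and control libraries were apart for 22 of the 41 genes, 18 lower and 4 higher in stretch cells, beside 55.9% of all genes (29.2% lower and 26.7% higher). Called genes ranged from Sgsh, which fell by 40.2%, to Ctsc, which was 2.33-fold higher in stretch cells. The counts depended on the size of change asked for: tested against a minimum fold of 1.2 (edgeR's glmTreat), 5 of the 41 fell and 2 rose, beside 9.33% and 8.51% of all genes. At that minimum fold the share that fell was near that of all genes. With library size alone as the scaling 25 fell and 3 rose, beside 30.2% and 14.7% of all genes. Without stretch replicate 1, the library richest in hepatocyte markers, 17 fell and 3 rose, beside 19% and 18.1% of all genes in that fit.

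**Figure D1:**
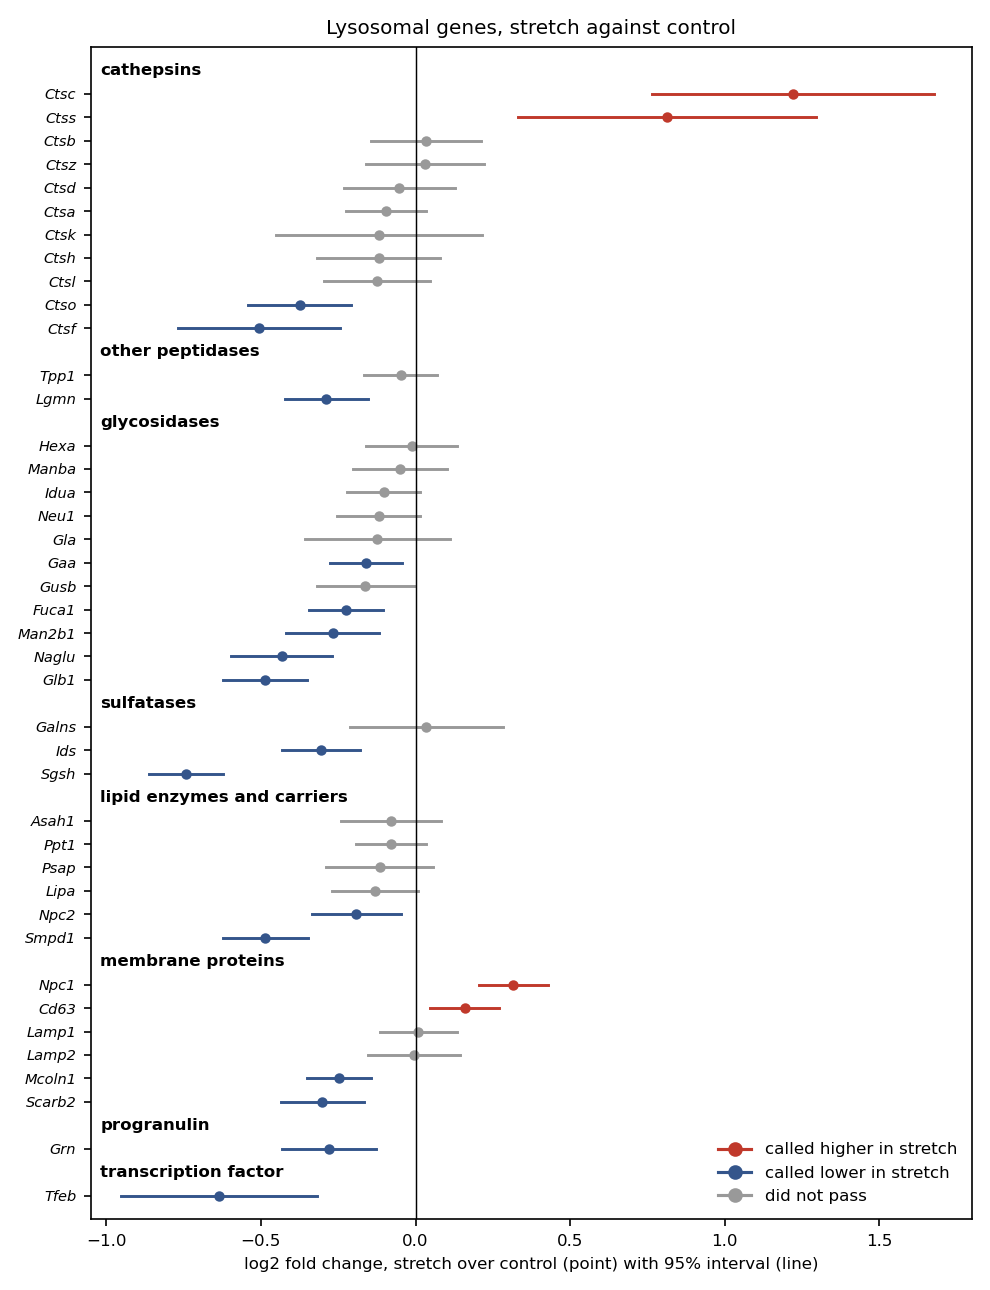
Log2 fold change (stretch over control) of each of the 41 genes with its 95% confidence interval, arranged by class, with the edgeR call marked by colour. All 11 glycosidases and all 6 lipid enzymes and carriers lie below 0, whereas the cathepsins spread from -0.51 (Ctsf) to 1.22 (Ctsc).

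The 11 cathepsins, proteases named by letter, did not move as a group: 2 rose, 2 fell and 7 did not pass, and their median log2 fold change was -0.09. The most abundant of them carried no called difference. Cathepsin D (Ctsd), the aspartic protease and the most abundant of the 41 genes per length, had 2224, 1820.01 and 2109 CPM in stretch libraries and 2247, 2074 and 2061 CPM in control libraries. The groups overlapped, and its log2 fold change of -0.05 had a 95% interval from -0.23 to 0.13 (edgeR adjusted p = 0.623). The cysteine proteases cathepsin L (Ctsl, log2 fold change -0.12, interval -0.30 to 0.05) and cathepsin B (Ctsb, 0.03, interval -0.14 to 0.21) also overlapped between groups. For Ctsb the highest library, 3724 CPM, and the lowest, 2985 CPM, were both stretch libraries, and the 3 control libraries lay between 3252 and 3322 CPM. Ctsa, Ctsh, Ctsk and Ctsz did not pass either, with log2 fold changes between -0.12 and 0.03.

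The cathepsins that rose were 2 genes at low level. Cathepsin C (Ctsc, chromosome 7: 88278093-88310875), which activates the serine proteases of immune cells, had 6.15, 4.65 and 4.02 CPM in stretch libraries and 2.03, 1.86 and 2.47 CPM in control libraries, the lowest level per length of the 41 genes. Every stretch library stood above every control library, and the log2 fold change was 1.22 ± 0.20 (SE; edgeR adjusted p = 0.00158, n = 3 per group). These levels rest on 343, 316 and 226 counts in stretch libraries and 120.0, 94 and 132 in control libraries. Cathepsin S (Ctss, chromosome 3: 95526786-95556403), the protease that trims the invariant chain in antigen-presenting cells, had 11.5, 8.35 and 8.63 CPM in stretch libraries and 7.15, 4.88 and 4.13 CPM in control libraries. The groups were apart by a narrow margin, and Ctss was 1.76-fold higher in stretch cells (log2 0.81 ± 0.21 SE, edgeR adjusted p = 0.0142).

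Markers of macrophages, which are known to express both proteases, were also higher in stretch cells. The macrophage markers summed to 160.0, 115 and 140.0 CPM in stretch libraries and 95.4, 94.9 and 80.1 CPM in control libraries. Of 12 tested, 11 were called higher and 0 lower. The 1 that did not pass was Cd68 (92.1, 67.7 and 85.7 CPM in stretch libraries and 66.2, 71.6 and 63.0 CPM in control libraries), itself a lysosomal protein. Cd68 made up most of the macrophage sum in every library. The Kupffer cell markers Clec4f and Timd4 reached at most 0.39 and 0.05 CPM in any library. Of the control libraries, replicate 4 had the highest Ctsc and the lowest macrophage sum. Stretch replicate 1 held the highest Ctsc, Ctss, macrophage and hepatocyte levels. Leaving it out gave 1.04 for the log2 fold change of Ctsc (edgeR adjusted p = 0.00312) and 0.66 for that of Ctss (edgeR adjusted p = 0.0387).

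**Figure D2:**
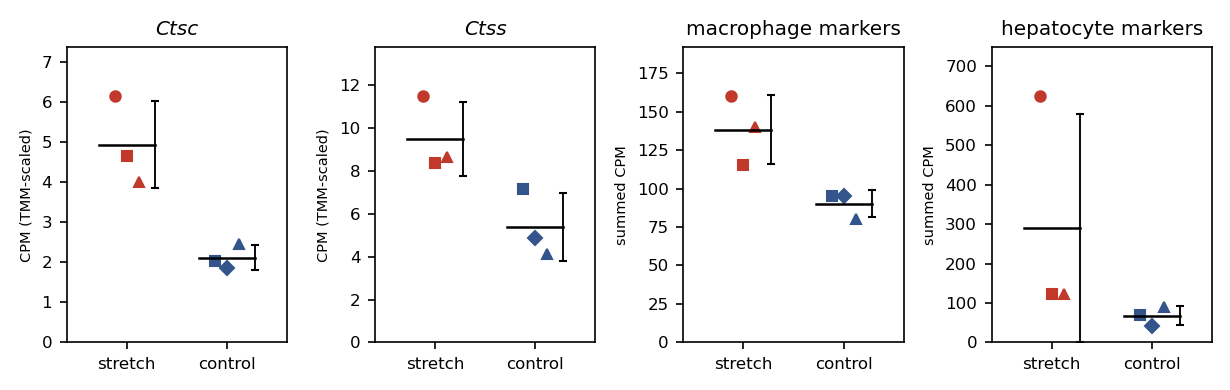
CPM per library of Ctsc and Ctss beside the summed CPM of macrophage and hepatocyte markers, stretch libraries left in red and control libraries right in blue, with circles for replicate 1, squares for 2, diamonds for 3 and triangles for 4, black lines for means and bars for SD. Stretch replicate 1 is the highest library in every panel, and all 3 stretch libraries lie above the control libraries. Most of the macrophage sum is Cd68, which did not pass.

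Both cathepsins that fell were cysteine proteases of lower abundance. Ctso (chromosome 3: 81932616-81956725) had 54.9, 59.5 and 49.3 CPM in stretch libraries and 73.6, 66.6 and 72.1 CPM in control libraries, and fell by 22.9% (log2 -0.37 ± 0.07 SE, edgeR adjusted p = 0.00383). Ctsf (chromosome 19: 4855129-4860912) had 12.2, 10.8 and 11.6 CPM in stretch libraries and 18.3, 13.6 and 17.4 CPM in control libraries, and fell by 29.6% (log2 -0.51 ± 0.12 SE, edgeR adjusted p = 0.00776). The groups did not overlap for either gene. Of the other peptidases, legumain (Lgmn, chromosome 12: 102394098-102439697), which cuts after asparagine and matures several cathepsins, had 358, 324 and 320.5 CPM in stretch libraries and 414, 387 and 422 CPM in control libraries. All stretch libraries were below all control libraries, and Lgmn fell by 18.1% (log2 -0.29 ± 0.06 SE, edgeR adjusted p = 0.00483). Tripeptidyl peptidase Tpp1 did not pass (log2 -0.05, interval -0.17 to 0.07).

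All 11 glycosidases had negative estimates, 5 of them fell, 0 rose and 6 did not pass. The share that fell was 45.5%, beside 22.6% of all genes, and the median log2 fold change of the class was -0.16. Stretch libraries lay below control libraries without overlap for 6 of these genes, beside 29.2% of all genes. The smallest p belonged to beta-galactosidase Glb1 (chromosome 9: 114401119-114474377), which removes terminal galactose from gangliosides and keratan sulphate and underlies the senescence stain. Glb1 had 42.4, 40.5 and 44.4 CPM in stretch libraries and 61.7, 55.4 and 61.2 CPM in control libraries. The groups were well apart, and Glb1 fell by 28.6% (log2 -0.49 ± 0.06 SE, edgeR adjusted p = 0.000378, n = 3 per group).

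Naglu (chromosome 11: 101070094-101077671), an exoglycosidase of heparan sulphate breakdown, had 55.1, 50.8 and 48.7 CPM in stretch libraries and 75.2, 63.8 and 69.7 CPM in control libraries. It fell by 25.9% without overlap (log2 -0.43 ± 0.07 SE, edgeR adjusted p = 0.00168). Alpha-mannosidase Man2b1 (chromosome 8: 85083269-85098739) and alpha-fucosidase Fuca1 (chromosome 4: 135920726-135940300) trim the N-linked sugars of glycoproteins. Man2b1 had 98.7, 84.8 and 90.3 CPM in stretch libraries and 117, 106 and 107 CPM in control libraries, and fell by 17.0% (edgeR adjusted p = 0.0110). Fuca1 had 105, 98.1 and 102 CPM in stretch libraries and 120.1, 112 and 124 CPM in control libraries, and fell by 14.5% (edgeR adjusted p = 0.00847). Acid alpha-glucosidase Gaa, which digests glycogen, had the largest adjusted p of the 5 that fell: it fell by 10.5% (edgeR adjusted p = 0.0339) and lost its call when any 1 library other than control replicate 4 was left out (adjusted p between 0.0559 and 0.133).

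The 6 glycosidases that did not pass included the most abundant one. Hexa, the alpha subunit of beta-hexosaminidase, had 395, 361 and 388 CPM in stretch libraries and 408, 391 and 353 CPM in control libraries, with a log2 fold change of -0.01 and an interval from -0.16 to 0.13. Its libraries were mixed between the groups. Idua, Gla, Gusb, Manba and Neu1 had log2 fold changes between -0.16 and -0.05, and Idua alone of these had no overlap between groups.

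Of the 3 sulfatases, which remove sulphate from glycosaminoglycans, 2 fell. Sgsh (chromosome 11: 119343489-119355510), the heparan N-sulfatase, had the smallest p of the 41 genes. It had 44.1, 43.2 and 42.5 CPM in stretch libraries and 76.8, 70.8 and 69.4 CPM in control libraries, and fell by 40.2% with tight replicates (log2 -0.74 ± 0.05 SE, edgeR adjusted p = 5.74e-05, n = 3 per group). In the mouse annotation 21.6% of Sgsh exon bases lie on Card14 exons of the opposite strand, and Card14, at lower level, also fell (mean 12.7 CPM in stretch and 19.9 CPM in control cells, log2 -0.65). Which strand the counting used was not given in the sources used here, and reads in that overlap cannot be told apart. Iduronate sulfatase Ids (chromosome X: 70343070-70365085), which acts on heparan and dermatan sulphate, had 58.6, 64.1 and 56.4 CPM in stretch libraries and 72.5, 74.2 and 74.5 CPM in control libraries. Ids fell by 19.0% (log2 -0.30 ± 0.06 SE, edgeR adjusted p = 0.00261). Galns, the sulfatase of keratan and chondroitin sulphate, did not pass (log2 0.03, interval -0.21 to 0.28). The lysosomal heparan sulphate genes Naglu, Sgsh and Ids each fell, and the alpha-iduronidase of the same route, Idua, had 57.7, 52.4 and 57.3 CPM in stretch libraries and 60.1, 58.8 and 60.8 CPM in control libraries (log2 -0.10, edgeR adjusted p = 0.138).

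**Figure D3:**
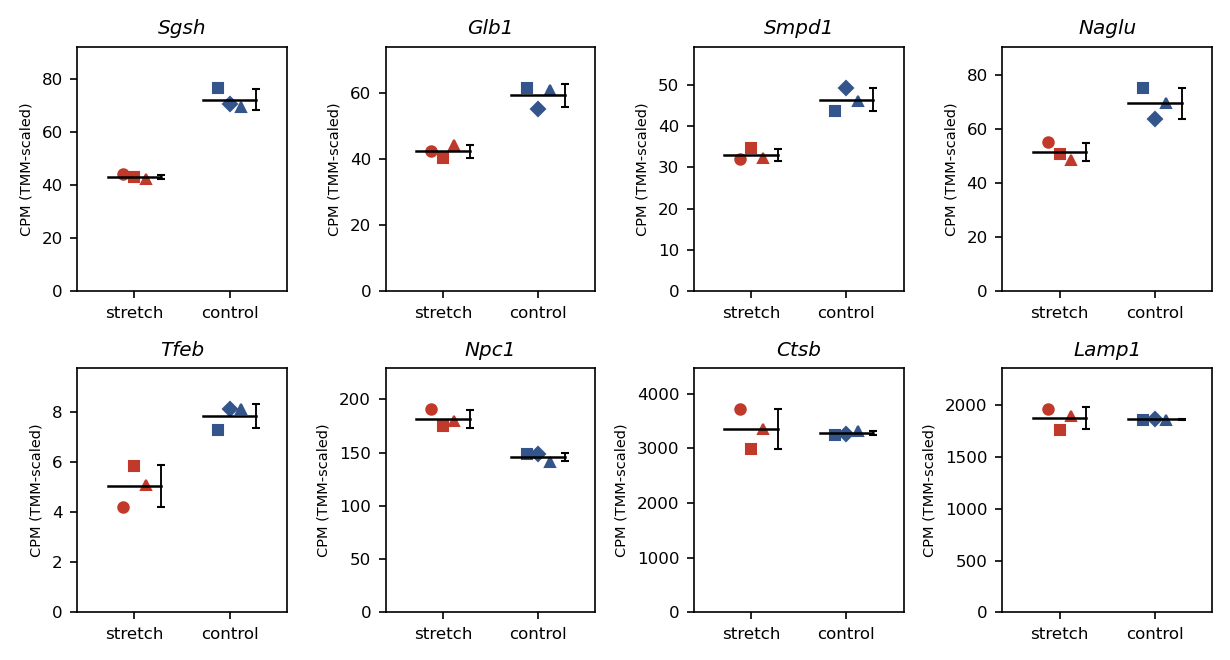
TMM-scaled CPM in each library for 8 of the genes (Sgsh, Glb1, Smpd1, Naglu, Tfeb, Npc1, Ctsb and Lamp1), stretch libraries in red at left and control libraries in blue at right, with black lines for means and bars for SD. The first 5 fell and Npc1 rose without overlap, whereas Ctsb and Lamp1 overlap between groups.

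All 6 lipid enzymes and carriers had negative estimates, but only 2 fell. Acid sphingomyelinase Smpd1 (chromosome 7: 105554360-105558389), which releases ceramide from sphingomyelin, had 32.2, 34.8 and 32.3 CPM in stretch libraries and 43.8, 49.3 and 46.0 CPM in control libraries. The groups were apart, and Smpd1 fell by 28.6% (log2 -0.49 ± 0.06 SE, edgeR adjusted p = 0.00041). Npc2 (chromosome 12: 84754559-84773112), the soluble protein that hands cholesterol to NPC1, had 202, 174 and 179.7 CPM in stretch libraries and 219.5, 204 and 212 CPM in control libraries. Npc2 fell by 12.4% (edgeR adjusted p = 0.0378), a call lost when any library except stretch replicate 1 was left out (adjusted p between 0.0510 and 0.129 in those fits). Psap, the precursor of the saposin activators and the most abundant gene of the class, did not pass (log2 -0.12, interval -0.29 to 0.06), and its stretch libraries spread from 1927 to 2384 CPM around control libraries at 2296 to 2380.5 CPM. Acid ceramidase Asah1, acid lipase Lipa and the thioesterase Ppt1 had log2 fold changes between -0.13 and -0.08 and did not pass.

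The membrane proteins moved both ways: 2 rose, 2 fell and 2 did not pass. Npc1 (chromosome 18: 12189694-12236386), the transporter that moves cholesterol out of the lysosome, had 191, 175 and 179.6 CPM in stretch libraries and 148, 148 and 142 CPM in control libraries. It rose by 24.6% without overlap (log2 0.32 ± 0.05 SE, edgeR adjusted p = 0.00119), beside the fall of its partner Npc2. The tetraspanin Cd63 (chromosome 10: 128908919-128912818) had 619, 566 and 602 CPM in stretch libraries and 531, 539 and 530.2 CPM in control libraries. Its rise of 11.7% (edgeR adjusted p = 0.0275) was a narrow one: without stretch replicate 1, stretch replicate 4 or any control replicate the adjusted p lay between 0.0620 and 0.0901, and with library size alone as the scaling the log2 fold change was 0.07.

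Scarb2 (LIMP-2, chromosome 5: 92443873-92505608), the receptor that carries beta-glucocerebrosidase to lysosomes, had 247, 237 and 214 CPM in stretch libraries and 288, 280.4 and 292 CPM in control libraries. It fell by 18.9% (log2 -0.30 ± 0.06 SE, edgeR adjusted p = 0.00379). The calcium channel Mcoln1 (TRPML1, chromosome 8: 3500519-3515231) had 64.1, 64.8 and 67.3 CPM in stretch libraries and 77.7, 75.5 and 79.9 CPM in control libraries, and fell by 15.8% (log2 -0.25 ± 0.04 SE, edgeR adjusted p = 0.00262). Neither gene overlapped between groups. Lamp1 and Lamp2, the glycoproteins that coat the inner face of the membrane, did not pass. Lamp1 had 1968, 1763 and 1898 CPM in stretch libraries and 1859, 1869.5 and 1863 CPM in control libraries, with a log2 fold change of 0.01 and an interval from -0.11 to 0.13, and for Lamp2 the interval ran from -0.15 to 0.14.

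Progranulin and TFEB were both lower. Grn (chromosome 11: 102430322-102436809), a secreted protein that reaches lysosomes and supports their enzymes, had 432, 374 and 436 CPM in stretch libraries and 511, 512 and 484 CPM in control libraries, and fell by 17.6% (log2 -0.28 ± 0.07 SE, edgeR adjusted p = 0.00922). Tfeb (chromosome 17: 47737037-47792416) was among the least abundant of the 41 genes. It had 4.18, 5.83 and 5.09 CPM in stretch libraries and 7.26, 8.11 and 8.11 CPM in control libraries, from 233 to 396 counts in a stretch library and 410.0 to 434 in a control library. The groups did not overlap, and Tfeb fell by 35.6% (log2 -0.64 ± 0.14 SE, edgeR adjusted p = 0.00653). These are transcript levels, and the activity of TFEB, which is set largely by its movement into the nucleus, was not measured.

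By class, counts called lower were 2 of 11 cathepsins, 5 of 11 glycosidases, 2 of 3 sulfatases, 2 of 6 lipid enzymes and carriers and 2 of 6 membrane proteins, and members called higher occurred in the cathepsins and membrane proteins and in no other class. As shares the lower calls were 18.2%, 45.5%, 66.7%, 33.3% and 33.3%, beside 22.6% of all genes. The cathepsins lay near the background. The sulfatases, with 3 genes, and the lipid and membrane classes, with 6 genes each, are too small to place. Higher calls were 18.2% of cathepsins and 33.3% of membrane proteins, beside 21.4% of all genes. The difference between classes was not tested. Per kilobase of coding length, cathepsins held 42.4% of the RNA of the 41 genes, membrane proteins 25.9%, lipid enzymes and carriers 16.8%, glycosidases 6.52% and sulfatases 0.528%. The 5 most abundant genes, Ctsd, Ctsl, Lamp1, Psap and Ctsb, held 62.5%, and none of these passed the test. Ctsl and Psap were called lower when library size alone set the scaling (log2 -0.22 and -0.21, edgeR adjusted p = 0.0307 and 0.0265).

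In RPKM, which scales reads to library size and coding length, the 41 genes summed to 7280, 6246 and 6748 in stretch libraries and 7160, 6925 and 7070 in control libraries, which overlap. Cathepsins summed to 3151, 2601 and 2870 RPKM in stretch libraries and 3036, 2890.0 and 3015 RPKM in control libraries, also overlapping. Glycosidases summed to 451.9, 407 and 434 RPKM in stretch libraries and 489.9, 467 and 452.1 RPKM in control libraries, so that the highest stretch library lay just under the lowest control library. The other peptidases summed to 346, 311 and 318 RPKM in stretch libraries and 370.3, 359 and 378 RPKM in control libraries, and Grn and Tfeb each had every stretch library below every control library, as given above. Sulfatases summed to 32.6, 31.1 and 31.8 RPKM in stretch libraries and 41.2, 41.7 and 40.4 RPKM in control libraries, with no overlap. Membrane proteins summed to between 1722 and 1893 RPKM in stretch libraries and between 1758 and 1774 RPKM in control libraries. Stretch replicate 2 gave the lowest sum and stretch replicate 1 the highest of the stretch libraries in the cathepsins, glycosidases, lipid enzymes and membrane proteins, and in these 4 classes the sums varied more among stretch than among control libraries.

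**Figure D4:**
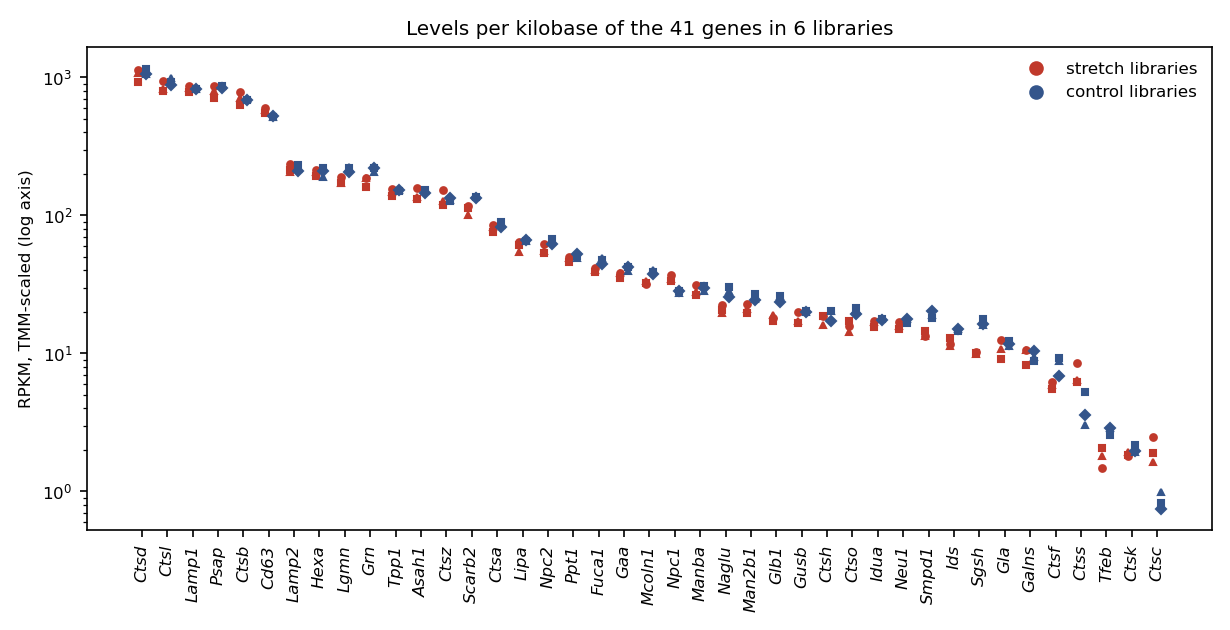
Level of each of the 41 genes in every library in RPKM on a log axis, ordered from the most to the least abundant, with stretch libraries in red at left of each pair, control libraries in blue, and marker shape for the replicate number. Group means run from 1089 RPKM (Ctsd in control cells) to 0.86 RPKM (Ctsc in control cells), and the libraries of the most abundant genes lie close together.

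Among 24 other lysosomal hydrolases and their activators, 11 fell, 0 rose and 13 did not pass, with a median log2 fold change of -0.15. The share that fell was 45.8%, beside 22.6% of all genes. The smallest p belonged to Siae, a sialic acid esterase (log2 -0.55, edgeR adjusted p = 0.00039), followed by acid phosphatase Acp2 (-0.31) and arylsulfatase A (Arsa, -0.25). Among 27 other lysosomal membrane proteins, 12 fell (44.4%) and 2 rose (7.41%), with a median of -0.16. The cystine exporter Ctns fell by 0.70 on the log2 scale (21.6, 24.4 and 22.5 CPM in stretch libraries and 37.5, 34.5 and 39.2 CPM in control libraries), Tmem106b by 0.55 and the sialic acid exporter Slc17a5 by 0.51. The genes that rose, Laptm5 (0.88) and Slc11a1 (0.81), are known from macrophages and reached at most 5.43 and 4.75 CPM. The macrophage markers given above were also higher in stretch cells.

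Genes of lysosome acidification and delivery were called at shares near those of all genes (21.4% higher and 22.6% lower) or with fewer lower calls. Of 25 subunits of the proton pump (V-ATPase) 21 were tested, 5 rose (23.8%), 3 fell (14.3%) and 13 did not pass, with a median log2 fold change of 0.12. Atp6v1h (0.34), Atp6v1c1 (0.27) and Atp6v0b (0.26) rose, and Atp6v0e2 (-0.62), Atp6v0a1 (-0.26) and Tcirg1 (-0.25) fell. Among 19 genes of sorting to lysosomes, 5 rose (26.3%) and 2 fell (10.5%), with a median of -0.04. Igf2r, the mannose 6-phosphate receptor that carries newly made hydrolases, rose by 0.24, the late endosome GTPase Rab7 by 0.20 and the adaptor Gga3 by 0.27, while the sorting receptor Sort1 fell by 0.77 on the log2 scale (35.3, 34.5 and 30.2 CPM in stretch libraries and 62.2, 53.6 and 54.4 CPM in control libraries). The tethering subunit Vps41 fell as well (-0.19).

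Of 20 genes of the MiT/TFE factors and of mTORC1 control at the lysosome, 4 rose (20%), 6 fell (30%) and 10 did not pass, near the shares of all genes. The relatives of Tfeb differed in direction: Mitf fell (log2 -0.52, edgeR adjusted p = 0.0181), Tfec rose (0.55, edgeR adjusted p = 0.000816) and Tfe3 did not pass (0.11, edgeR adjusted p = 0.132). Tfec had 95.2, 83.8 and 100.03 CPM in stretch libraries and 68.5, 63.4 and 59.1 CPM in control libraries. The mTORC1 activator Rheb rose (0.42), and its inhibitor Tsc2 (-0.33) and the RagC/D regulator Flcn (-0.51) fell. Of the Ragulator scaffold, Lamtor3 rose (0.36) and Lamtor1, listed under an older symbol, fell (-0.22).

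Among 26 autophagy genes 12 fell (46.2%), 6 rose (23.1%) and 8 did not pass, beside 22.6% lower and 21.4% higher of all genes. The share that rose was near that of all genes. The kinases Ulk1 (-0.77) and Ulk2 (-0.54), which start autophagosome formation, and the lipid scramblase Atg9a (-0.56) had the smallest p of those that fell. The cargo receptor Sqstm1 rose (0.43), with 2173, 2098 and 2412 CPM in stretch libraries and 1725, 1696 and 1523 CPM in control libraries, and Atg3 (0.32) and Gabarapl2 (0.22) rose as well.

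**Figure D5:**
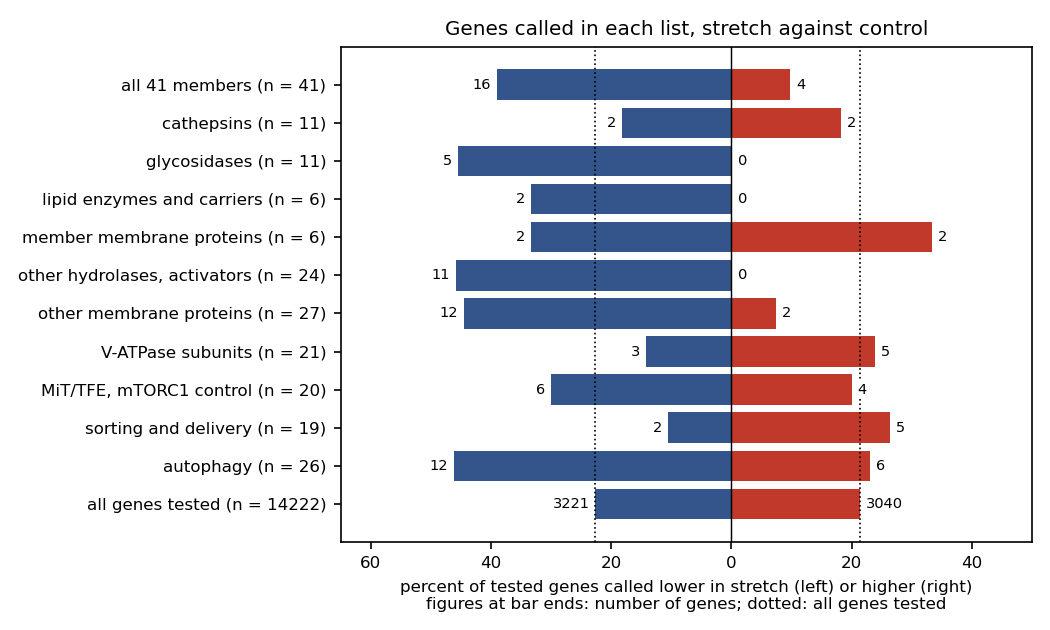
Percent of tested genes called lower (blue, to the left) and higher (red, to the right) in stretch cells for the 41 genes, 4 of their classes, 6 lists of related genes and all genes tested (dotted lines), with the number of genes at each bar end. Lower calls reach 45.5% of glycosidases and 45.8% of the other hydrolases, against 22.6% of all genes.

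Inhibitors of cysteine cathepsins were few: 3 of 7 cystatins were tested. Cystatin B (Cstb), the cytosolic inhibitor, rose by 0.54 on the log2 scale, with 283, 244 and 301 CPM in stretch libraries and 176, 211 and 184 CPM in control libraries (edgeR adjusted p = 0.00198). The secreted inhibitor Cst3 had 131, 142 and 137 CPM in stretch libraries and 166, 145 and 148 CPM in control libraries and did not pass (edgeR adjusted p = 0.0633). Of 12 other cathepsin genes 4 were tested and 1 was called, the placental Ctsq, which lies in a cluster of near copies. It had 0, 0 and 1 counts in stretch libraries and 73, 427 and 523 in control libraries. Among its relatives Ctsj did not pass, and Ctsm, Ctsr, Cts3, Cts6 and Cts7 had 0 counts in every library.

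Promoter sequences are shown because many of these genes are known TFEB targets, and Tfeb itself fell. RefSeq windows of 300 bases (250 before to 50 after the start site, build GRCm38.p6) matched 36 of the 41 genes by symbol. They were searched for the E-box CACGTG, for TCACGTGA, which contains it, and for the longer palindrome made by adding G before and C after TCACGTGA. Each motif is its own reverse complement, so 1 search covers both strands. A gene can have several windows, and it was counted if any of them held the motif. The E-box was found for 12 of 36 genes (33.3%), against 2187 of 27025 genes with a window (8.09%) and 10.5% of genes with counts here. TCACGTGA lay in 4 of 36 (11.1%, in Ctsa, Ctsd, Gla and Mcoln1) against 1.12% of all genes, and the longer palindrome in 0 of 36 against 0.37%. Mean GC content was 56.6% in the windows of the 36 genes and 53.8% in all windows. A match to these letters does not show that a factor binds there.

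The windows of 3 genes that fell were picked for printing, 5′ to 3′ on the strand of the gene with the E-box in capitals. Sgsh had the smallest p of all 41 genes and Glb1 the smallest of the glycosidases, and Mcoln1 was the gene that fell with 2 E-boxes, the second within TCACGTGA. The windows are chr11:119355461-119355760 (minus strand) for Sgsh, chr9:114400828-114401127 (plus strand) for Glb1 and chr8:3500269-3500568 (plus strand) for Mcoln1.
Sgsh: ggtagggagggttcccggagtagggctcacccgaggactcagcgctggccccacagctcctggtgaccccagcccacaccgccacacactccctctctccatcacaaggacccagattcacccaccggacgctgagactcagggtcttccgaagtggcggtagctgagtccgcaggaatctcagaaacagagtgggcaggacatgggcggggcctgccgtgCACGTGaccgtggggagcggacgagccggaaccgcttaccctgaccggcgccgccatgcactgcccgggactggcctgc
Glb1: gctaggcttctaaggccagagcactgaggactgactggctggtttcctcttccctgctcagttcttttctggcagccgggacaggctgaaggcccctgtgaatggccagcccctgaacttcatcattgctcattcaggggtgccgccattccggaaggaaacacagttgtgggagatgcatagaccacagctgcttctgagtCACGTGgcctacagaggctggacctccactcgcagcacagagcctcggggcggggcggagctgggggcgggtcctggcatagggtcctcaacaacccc
Mcoln1: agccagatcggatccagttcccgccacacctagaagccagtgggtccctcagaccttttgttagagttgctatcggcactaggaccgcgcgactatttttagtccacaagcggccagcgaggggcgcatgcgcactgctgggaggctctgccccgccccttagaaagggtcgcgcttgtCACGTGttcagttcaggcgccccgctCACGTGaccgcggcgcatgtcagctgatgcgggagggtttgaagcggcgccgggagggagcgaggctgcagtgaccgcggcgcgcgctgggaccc

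Shorter stretches around the E-box compare genes that fell with genes that did not pass. Distances are counted from the start site of the RefSeq window, which can differ from the edge of the deposited gene position. For Lgmn and Ctsa the E-box lies inside the deposited gene position. The first 2 below fell, Naglu (E-box 73 bases upstream of the start site, chr11:101070011-101070036, plus strand) and Lgmn (49 bases upstream, chr12:102439126-102439151, minus strand). The other 3 did not pass: Ctsd (98 bases upstream, chr7:142387910-142387935, minus strand), Ctsa (12 bases upstream, chr2:164833751-164833776, plus strand) and Lamp1 (61 bases upstream, chr8:13159090-13159115, plus strand, the most distal of 4 E-boxes in its window).
Naglu: accttcaggtCACGTGgcccgaggtc
Lgmn: gaatgtctgtCACGTGgtccatttta
Ctsd: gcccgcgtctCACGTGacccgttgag
Ctsa: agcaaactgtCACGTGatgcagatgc
Lamp1: ggcaagatatCACGTGgtccagcgcc

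The E-box occurred among both kinds of gene. Of the 12 genes with an E-box, 7 fell (Ctsf, Gaa, Glb1, Lgmn, Mcoln1, Naglu and Sgsh), 0 rose and 5 did not pass (Ctsa, Ctsd, Ctsl, Gla and Lamp1), with a median log2 fold change of -0.20. Of the 24 genes without one, 9 fell, 3 rose and 12 did not pass, with a median of -0.12. Across all genes tested 22.6% fell and 21.4% rose, and the calls among all genes with an E-box were not counted. Gaa, among the genes with an E-box that fell, lost its call in 8 of 13 alternatives. Smpd1, Tfeb, Ids, Ctso and Scarb2 fell and had no CACGTG in any matched window. The genes that rose, Ctsc, Ctss and Cd63, had none either, while Npc1 was not among the matched genes. The difference between genes with and without the E-box was not tested.

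In the authors' deposited table of the same comparison, 4 of the 41 genes were higher, 16 lower and 21 not called at a false discovery rate under 0.05, and the call was the same for all 41. Some other genes share exon bases with neighbours, among them Glb1 and Grn, which fell. Glb1 shares 5.5% of its exon bases with Tmppe on the same strand, so reads in that overlap cannot be told apart by strand. Tmppe was at a similar level and did not pass (mean 49.5 CPM in stretch and 48.5 CPM in control cells, log2 0.03). Grn shares 2.0% with Fam171a2 on the opposite strand, which is far less abundant and also fell (log2 -0.82). Ppt1 shares 3.5% of its exon bases with Cap1 on the opposite strand, which is more abundant and rose, and Ctsb shares 12.8% with Fdft1, which is far less abundant and fell.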

How the data were processed

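RNA sequencing libraries from 3 stretch and 3 control samples were grouped by their labels. The authors deposited whole-number counts per gene. The submitters' processing notes list, without roles, TopHat2 2.1.0 and featureCounts as well as edgeR and the build GRCm38 (mm10). Annotation, strand setting and filters were not given in the sources used here. Per the file headers, the authors' deposited comparison table holds RPKM values, log2 fold changes and log2 CPM, a likelihood ratio score, and each p-value and FDR. Gene positions are those of the deposited count table.

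The test was run on the counts in edgeR 4.0.16 under R 4.3.3 (TMM scaling, filterByExpr, quasi-likelihood test, Benjamini-Hochberg adjustment over 14222 genes), and called at an adjusted p under 0.05. CPM and RPKM in the text were computed from the counts with TMM scaling, RPKM with the deposited coding length. The SE is the log2 fold change divided by the square root of F, and intervals are at 95%. In each class the called genes, or the 4 with the smallest p where more were called, are given with every library. In related lists up to 3 called genes in each direction with the smallest p were to be named, and a few others (Mitf, Tfe3, Cst3) were named after their values were seen. The 41 genes and all lists were chosen with earlier results of these data known. Lists were described by counts and medians beside all genes, with no set test. Promoter windows came from RefSeq and exon overlaps from GENCODE. Alternatives were RLE factors, library size only, no filter, DESeq2 1.42.0, limma-voom (limma 3.58.1), a minimum fold of 1.2 (glmTreat), a replicate block, and leaving out every library in turn. The steps were tested on simulated data. The precision follows from 3 libraries per group and from between 48948948 and 68489956 counts per library.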

Additional observations from a re-analysis of the deposited data

How the results depend on the processing

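Of the 20 called genes, Ctsc, Ctss, Glb1, Naglu, Sgsh, Smpd1 and Tfeb kept their call in all 13 alternatives. Ctss kept it narrowly, with an edgeR adjusted p of 0.0499 without control replicate 3. Another 10 (Ctsf, Ctso, Lgmn, Man2b1, Fuca1, Ids, Scarb2, Mcoln1, Npc1 and Grn) lost it only under glmTreat against a fold of 1.2, and Gaa, Npc2 and Cd63 lost it in 8, 7 and 8 alternatives. Of the 21 genes that did not pass, 12 gained a call in some alternative: 9 with library size only (Ctsa, Ctsl, Tpp1, Gusb, Idua, Neu1, Psap, Lipa and Ppt1), 6 with the replicate block (Ctsh, Ctsl, Gla, Gusb, Asah1 and Lipa) and 2 without stretch replicate 1 (Gusb and Lipa). The cause was not tested for any change given here. The glmTreat test left 2537 genes called in all (8.51% higher and 9.33% lower), with 2 of the 41 genes higher and 5 lower: 0 cathepsins, 2 glycosidases, 1 lipid gene and 0 membrane proteins lower, and 0 membrane proteins higher. With library size only, which moved the median of all genes to -0.11 and lower calls to 30.2% of genes (32.7% of calls were higher, against 48.6% with TMM), 25 of the 41 genes were lower: 4 cathepsins, 8 glycosidases and 5 lipid genes among them, with 1 membrane protein higher. RLE factors left 1 lipid gene lower. Leaving out each library in turn gave 3 to 4 genes higher and 14 to 17 lower of the 41, with 1 to 3 lipid genes lower and 1 to 2 membrane proteins higher. Ctsc and Ctss were each highest in stretch replicate 1 and kept their call without it.

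Replicates 2 and 4 occur in both groups, and the labels do not tie a number to an isolation or day. Deviations from the group means correlated at r = 0.21 for replicate 2 and 0.11 for replicate 4, across genes. Between libraries of unequal number r ran from -0.204 to 0.18. With only 2 pairs, these values cannot tell whether equal numbers share an isolation or day. With the replicate block 5568 genes were called (20.1% of those tested lower and 19.1% higher), and 3 of the 41 genes were higher and 21 lower, with 4 cathepsins and 4 lipid genes lower and 1 membrane protein higher. Stretch replicate 1 and control replicate 3 have no partner of equal number, so the group difference in that fit rests on replicates 2 and 4.

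Signs turned only for genes that did not pass. With the block the log2 fold change was -0.0532 for Ctsb, -0.0604 for Ctsz and -0.0248 for Lamp1, and with library size only it was -0.0609 for Ctsb, -0.0641 for Ctsz, -0.0603 for Galns and -0.0841 for Lamp1. With RLE factors it was 0.0055 for Hexa and 0.0136 for Lamp2, and with DESeq2 0.0055 and 0.0135. Leaving out libraries gave ranges of -0.0396 to 0.12 for Ctsb, -0.11 to 0.0389 for Ctsd, -0.0695 to 0.12 for Ctsz, -0.0809 to 0.0033 for Tpp1, -0.0708 to 0.038 for Hexa, -0.11 to 0.0151 for Manba, -0.0252 to 0.16 for Galns, -0.0186 to 0.0647 for Lamp1 and -0.0542 to 0.0375 for Lamp2. The number of libraries, 3 a group, limits the precision of these small differences.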
